A study of Mus musculus with 12 samples.

Results

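The 10 circadian clock genes Arntl, Clock, Per1, Per2, Per3, Cry1, Cry2, Nr1d1, Nr1d2 and Dbp were followed in the messenger RNA of a pair of mouse testis cell lines. They were taken by gene name from the table of raw gene counts, where each name had 1 row among 55004, and all 10 were among the 15700 genes with enough counts to be tested. By their labels TM3 derives from Leydig cells, which make testosterone, and TM4 from Sertoli cells, which nurse the germ cells. The cells were exposed 24 h after seeding to 100 uM MEHP (mono-(2-ethylhexyl) phthalate, a metabolite of the plasticizer DEHP) for 72 h. The control cells had 0.1% DMSO, the solvent of MEHP. There were 4 groups of 3 libraries each, TM3 with DMSO, TM3 with MEHP, TM4 with DMSO and TM4 with MEHP. Each cell type is thus represented by 1 cultured line, without germ cells or the other cells of the testis. No label describes the 3 libraries of a group as separate cultures, so the p-values given here measure the spread between libraries, which may be technical.

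The mammalian clock is a feedback loop of transcription. CLOCK and BMAL1, the product of Arntl, bind E-boxes as a pair and drive the Per, Cry, Nr1d1, Nr1d2 and Dbp genes. PER and CRY proteins then bind and repress that pair, and the nuclear receptors REV-ERBalpha (Nr1d1) and REV-ERBbeta (Nr1d2) repress Arntl and Clock through ROR response elements. DBP and its relatives TEF and HLF activate genes through D-boxes, which the repressor NFIL3 also binds. Transcripts of most of these genes rise and fall over the day in tissues and in cultured cells whose clocks have been set in step. In mice BMAL1 is needed for full expression of testosterone synthesis genes in Leydig cells. All libraries here came from the same length of exposure, so each value is a level at that time, and amplitude and phase were not measured. Fewer cells transcribing a gene and less RNA per cell cannot be told apart in such bulk samples.

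Library totals ran from 15771908 to 18203115 counts, and 3 counts, taken as the limit that a count of 0 allows, corresponded to 0.165 to 0.190 CPM (counts relative to the library total scaled by its TMM factor). The clock genes had 57 to 5252 counts in a library, far above that limit, which covers counting error only. The labelled cell types were only partly borne out by their markers. The summed level of 7 Leydig markers was 8.04 to 11.9 CPM in all 12 libraries. The luteinizing hormone receptor gene Lhcgr and the steroid enzyme gene Hsd3b1 had no count in any library, and Star under DMSO stood at 6.59 ± 0.996 CPM in TM3, against 7.81 ± 1.08 in TM4 (SD, n = 3). The steroidogenic regulator gene Nr5a1 went with the labels, at 0.826 ± 0.390 CPM in TM3 DMSO against 0.214 ± 0.209 in TM4 DMSO, with libraries that overlapped. It was the 1 Leydig marker of the 3 tested that was called lower in TM4 under DMSO, and 0 were called higher. The summed level of 9 Sertoli markers was 364 to 437 CPM in TM3 and 59.3 to 63.9 CPM in TM4. The Sertoli regulator gene Wt1 reached 167 ± 7.06 CPM in TM3 DMSO but 0.0776 ± 0.0858 in TM4 DMSO, and Clu 204 ± 11.2 against 1.59 ± 0.682, and these genes made up most of the TM3 sum. Sox9 and Gata4, transcription factor genes of Sertoli cells, were higher in TM4, at 0.362 ± 0.0197 CPM in TM3 DMSO against 2.37 ± 0.981 in TM4 DMSO for Sox9 and 35.3 ± 2.39 against 51.95 ± 1.16 for Gata4. Of the 6 Sertoli markers tested 2 were called higher and 3 lower in TM4 under DMSO. Fshr and Dmrt1 had no count anywhere. The lines are therefore called TM3 and TM4 throughout.

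Promoter sequences of 4 of the genes are shown because they carry the binding motifs through which the loop acts. These genes also differ in their responses to MEHP. Per2, which fell most in TM4, had no promoter sequence to show. Each sequence is the RefSeq window of 300 bases on GRCm38.p6, from 250 bases before to 50 after a transcription start. It is written 5′ to 3′ on the strand of the gene with motif matches in capitals. Capitals mark a ROR response element in Arntl (searched with any base in the third place), an E-box (CACGTG) in Per1, a pair of D-boxes (TTATGTAA) in Per3, and an E-prime box (CACGTT, here on the other strand) followed by an E-box in Cry1.
Arntl, chr7:113207261-113207560 (+): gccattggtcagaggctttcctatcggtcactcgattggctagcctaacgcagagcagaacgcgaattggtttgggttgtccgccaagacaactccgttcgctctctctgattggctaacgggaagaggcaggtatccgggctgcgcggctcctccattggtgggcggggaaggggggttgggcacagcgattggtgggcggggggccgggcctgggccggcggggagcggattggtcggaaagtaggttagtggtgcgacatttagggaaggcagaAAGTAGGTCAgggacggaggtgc
Per1, chr11:69098699-69098998 (+): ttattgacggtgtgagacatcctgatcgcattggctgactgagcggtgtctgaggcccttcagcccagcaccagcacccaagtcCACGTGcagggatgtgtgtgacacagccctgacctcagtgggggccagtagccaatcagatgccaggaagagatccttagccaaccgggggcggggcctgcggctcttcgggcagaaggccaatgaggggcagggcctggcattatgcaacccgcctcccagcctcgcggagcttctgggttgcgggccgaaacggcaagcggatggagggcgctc
Per3, chr4:151044616-151044915 (-): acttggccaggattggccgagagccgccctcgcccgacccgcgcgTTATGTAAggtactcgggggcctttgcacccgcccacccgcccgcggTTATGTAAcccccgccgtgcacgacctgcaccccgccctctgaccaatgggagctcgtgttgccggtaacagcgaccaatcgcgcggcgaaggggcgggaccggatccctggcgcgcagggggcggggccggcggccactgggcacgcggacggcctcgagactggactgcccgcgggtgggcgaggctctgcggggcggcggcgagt
Cry1, chr10:85185005-85185304 (-): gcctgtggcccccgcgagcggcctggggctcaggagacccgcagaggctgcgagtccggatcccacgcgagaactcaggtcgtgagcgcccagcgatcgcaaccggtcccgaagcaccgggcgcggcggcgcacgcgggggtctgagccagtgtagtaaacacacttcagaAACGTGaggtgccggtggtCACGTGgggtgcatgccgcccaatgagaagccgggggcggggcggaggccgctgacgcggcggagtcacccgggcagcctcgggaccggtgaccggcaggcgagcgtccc

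The table of promoters held 13 windows for 9 of the 10 genes, and Per2 had none. At least 1 of these motifs, searched on both strands, was found in 1 window each of 6 genes. With the first transcribed base as 1, the first base of the Arntl element lay at 28 and that of the Per1 E-box at -166. The Per3 D-boxes began at -205 and -158, and the Cry1 matches at -79 and -60. Cry2 held an E-prime box at -166 and Nr1d1 one at -28. These letters were absent from the windows of Clock, Nr1d2 and Dbp, as were a further form each of the D-box (TTACGTAA) and of the ROR element and the cAMP response element TGACGTCA from all windows of the clock genes. Over all 32851 promoter windows, an E-box was present in 7.15%, an E-prime box in 4.68%, a D-box in 0.938% and the ROR element of Arntl in 0.219%. At least 2 D-boxes were present in 0.0213% of the windows, 7 in all. A match is a run of letters, and binding was not measured.

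Per1, a PER repressor gene, had the highest level of the 10 in every group when counts were divided by gene length. Its level was 20.7 RPKM (CPM divided by the length of the gene model in kilobases) in TM3 DMSO, 23.5 in TM3 MEHP, 53.1 in TM4 DMSO and 29.4 in TM4 MEHP. Per2, its paralog, was the lowest in TM3 DMSO at 0.897, in TM3 MEHP at 1.39 and in TM4 MEHP at 1.06 RPKM. In TM4 DMSO the lowest gene was Arntl at 1.33 RPKM. The order below Per1 in TM3 DMSO was Nr1d2, Cry1, Clock, Nr1d1, Cry2, Arntl, Dbp, Per3 and Per2, where the libraries of the neighbours Arntl and Dbp overlapped, as did those of Per3 and Per2. In TM4 DMSO it was Cry1, Nr1d2, Nr1d1, Dbp, Clock, Cry2, Per3, Per2 and Arntl, and among these neighbours only Clock and Cry2 overlapped. With MEHP the overlapping neighbours were Arntl with Cry2, Cry2 with Dbp and Per3 with Per2 in TM3, and Cry1 with Nr1d2 and Cry2 with Clock in TM4.

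**Figure D1:**
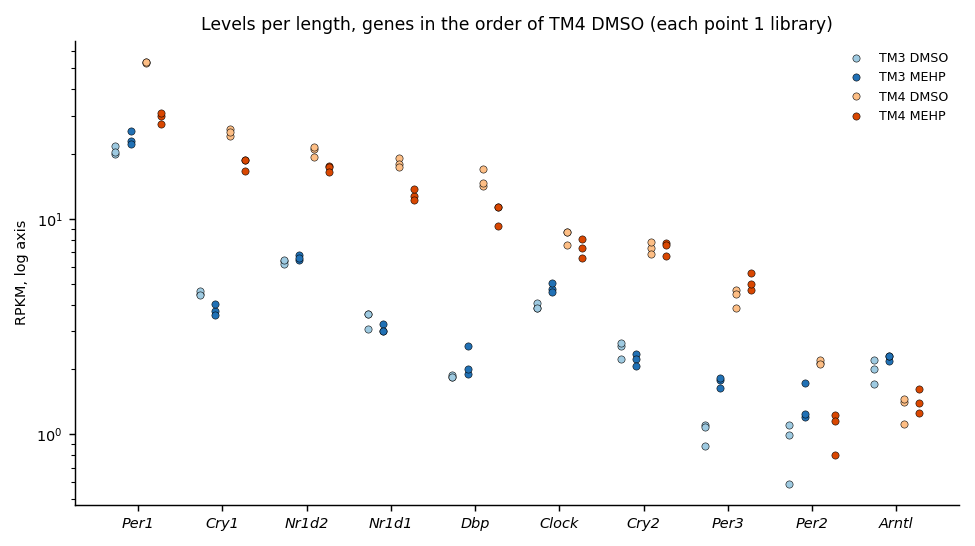
RPKM of the 10 clock genes on a log axis, with 1 point per library coloured by line and treatment and genes ordered by their level in TM4 DMSO. Per1 is the highest gene in every group, from 20.7 RPKM in TM3 DMSO to 53.1 in TM4 DMSO, and Arntl alone is lower in TM4 than in TM3 under both treatments.

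The comparison of the lines under DMSO asked how the clock genes differ without the compound. Of the 10 clock genes, all but Arntl were higher in TM4 than in TM3, and Arntl was lower. Dbp stood at 5.55 ± 0.0628 CPM in TM3 and 45.8 ± 4.56 in TM4 (SD, n = 3), 8.23-fold higher (log2 fold change 3.04 ± 0.12 SE, edgeR adjusted p = 2.41e-21). Cry1, a CRY repressor gene, was 5.60-fold higher at 2.49 ± 0.08 (edgeR adjusted p = 5.19e-24), and Nr1d1 5.28-fold higher at 2.40 ± 0.09. Arntl stood at 14.8 ± 1.89 CPM in TM3 and 10.03 ± 1.40 in TM4, a log2 fold change of -0.57 ± 0.12 (edgeR adjusted p = 0.000119).

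By the edgeR quasi-likelihood test, 9 of the 10 genes were higher in TM4 DMSO and 1 was lower, with no overlap of libraries for any of them. The lines differed in most genes, however: 40.0% of all genes tested were called higher, 42.0% lower, 82.0% in either direction, and 82.9% had libraries that did not overlap. The median log2 fold change of the clock genes was 1.63, against -0.01 for all genes. Their median absolute log2 fold change was 1.63 against 0.96. The other log2 fold changes were those of Per3 at 2.08 ± 0.10, Nr1d2 at 1.70 ± 0.06, Cry2 at 1.56 ± 0.09, Per1 at 1.36 ± 0.06, Per2 at 1.26 ± 0.18 and Clock at 1.09 ± 0.07 (log2 fold change ± SE). Under MEHP 8 genes were higher in TM4 and 1, Arntl at -0.67 ± 0.12, was lower, against 39.9% higher, 40.4% lower and 80.3% either way over all genes. The libraries of 9 of the 10 did not overlap, against 80.8% of all genes. The exception was Per2, at -0.39 ± 0.19 (edgeR adjusted p = 0.0602), whose libraries overlapped between the lines. It passed, always lower in TM4, with RLE or upper-quartile factors, DESeq2, no filter or only the libraries compared, and when any 1 of TM3 DMSO replicates 1 and 2, TM3 MEHP replicates 1 and 2 and TM4 MEHP replicate 1 was left out (adjusted p = 0.0223 to 0.0477). Per1 was still higher in TM4 under MEHP but by 0.32 ± 0.06.

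**Figure D2:**
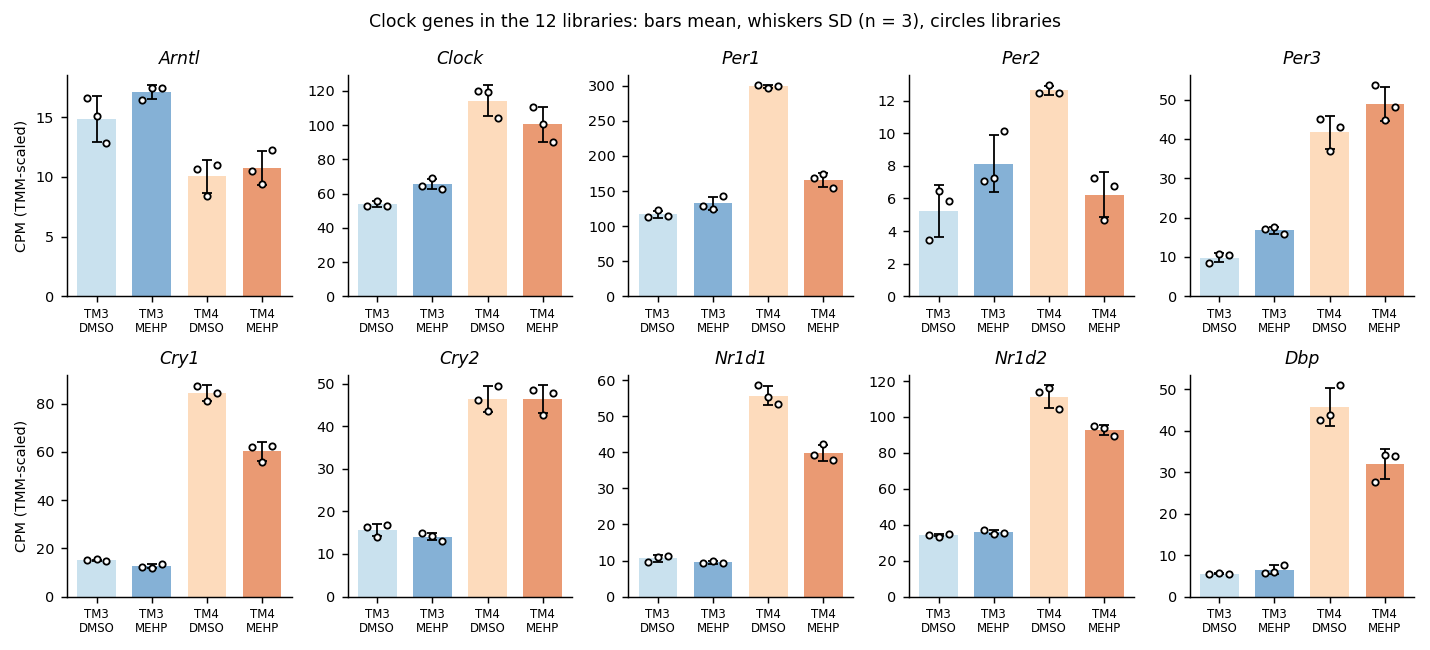
CPM of each clock gene in the 4 groups, with bars for the mean, whiskers for the SD (n = 3) and circles for the libraries, each panel on its own scale from 0. Per1 falls from 299 to 166 CPM with MEHP in TM4 and Per3 rises from 9.83 to 16.8 CPM in TM3, while the Cry2 groups of TM4 lie at 46.4 and 46.3 CPM.

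The responses to MEHP differed between the lines for 6 of the 10 genes, where 26.3% of all genes tested differed. In TM3 the PER genes and Clock rose, Per3 most at 1.71-fold, and Cry1 fell by a little. In TM4 the genes that CLOCK and BMAL1 drive mostly fell, Per2 2.03-fold, Per1 1.81-fold, Dbp 1.43-fold and Cry1 and Nr1d1 1.40-fold each, and Per3 alone rose. Arntl and Cry2 passed the test in neither line. These comparisons were made to ask what the phthalate monoester does to each line.

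In TM3, 4 of the 10 genes rose (9.04% of all genes tested did) and 1 fell (7.43% did), so 5 passed where 16.5% of all genes passed in either direction. Libraries did not overlap for 6 of the 10, against 35.4% of all genes. The median log2 fold change was 0.19 (0.01 over all genes) and the median absolute value 0.21 (0.16 over all genes). In TM4, 1 of the 10 rose (15.9% of all genes did) and 7 fell (15.0% did), together 8 where 30.9% of all genes passed. Again 6 of the 10 had libraries that did not overlap, against 38.8%. The median was -0.37 (0.00 over all genes) and the median absolute value 0.37 (0.22 over all genes). The TM3 count moved when single libraries were left out. It was 2 without TM3 DMSO replicate 1, 3 without TM3 DMSO replicate 3 and 3 without TM3 MEHP replicate 3. The calls over all genes also fell, from 2585 to 1757, 1748 and 1865 in these settings. At an adjusted p under 0.01 the clock count was 2, with 1492 calls over all genes.

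**Figure D3:**
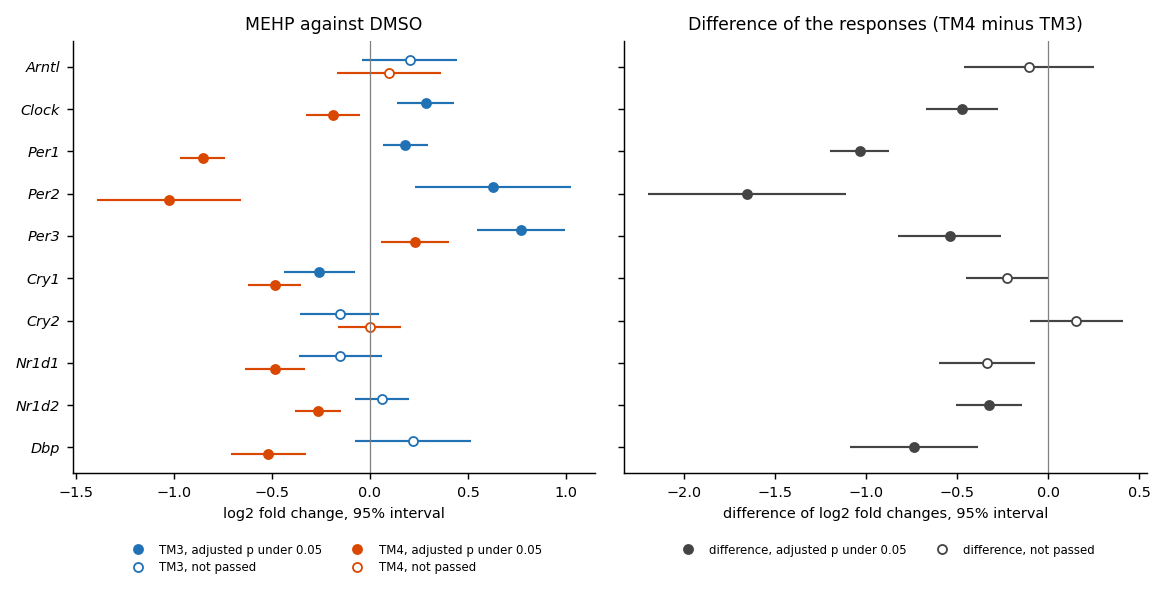
Left, log2 fold change of MEHP against DMSO for each clock gene in TM3 and TM4, with 95% intervals; right, how far the TM4 response lies from that of TM3. Filled circles passed at an edgeR adjusted p under 0.05, and Per1, from 0.18 in TM3 to -0.85 in TM4, and Per2, from 0.63 to -1.02, are farthest apart.

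Arntl (ENSMUSG00000055116, chromosome 7, 113207465 to 113314126, plus strand, mm10 as in the authors' table) encodes BMAL1. Its 3 TM3 DMSO libraries stood at 16.6, 15.0 and 12.9 CPM and its TM3 MEHP libraries at 16.4, 17.4 and 17.4. The TM4 libraries stood at 10.7, 8.43 and 11.002 with DMSO and 10.5, 9.40 and 12.2 with MEHP. The groups overlapped in both lines. The log2 fold change was 0.20 ± 0.12 in TM3 (95% interval -0.04 to 0.44, edgeR adjusted p = 0.272) and 0.10 ± 0.13 in TM4 (-0.17 to 0.36, edgeR adjusted p = 0.621). In TM4 the estimate had no stable sign, at -0.03 without TM4 DMSO replicate 2 and -0.01 without TM4 MEHP replicate 3.

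Clock (ENSMUSG00000029238, chromosome 5, 76209868 to 76304792, minus strand) encodes the partner of BMAL1. In TM3 it stood at 52.9, 55.8 and 52.7 CPM with DMSO and 64.6, 68.9 and 62.9 with MEHP, every MEHP library above every DMSO library. It rose by a log2 fold change of 0.28 ± 0.07 (edgeR adjusted p = 0.00496). The TM4 libraries stood at 119.6, 119 and 104 CPM with DMSO and 110.3, 100.5 and 90.4 with MEHP, and the groups overlapped. There it fell by 0.19 ± 0.07 on the log2 scale (edgeR adjusted p = 0.0308), a call that was lost when any 1 of TM4 DMSO replicates 1 and 2 and TM4 MEHP replicates 2 and 3 was left out (edgeR adjusted p = 0.0674 to 0.202). The call was also lost with only the TM4 libraries in the fit (edgeR adjusted p = 0.0617). Without TM4 MEHP replicate 3 the value was -0.12.

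Per1 (ENSMUSG00000020893, chromosome 11, 69095217 to 69109960, plus strand) encodes a PER repressor. The TM4 DMSO libraries stood at 301, 297 and 299 CPM and the TM4 MEHP libraries at 168, 174 and 155. These groups lay far apart, with means of 299 ± 1.88 and 166 ± 10.1 (SD, n = 3). The log2 fold change was -0.85 ± 0.06 (edgeR adjusted p = 5.29e-13). In TM3 the libraries stood at 113, 122 and 115 CPM with DMSO and 129, 125 and 143 with MEHP. They did not overlap, and Per1 rose by 0.18 ± 0.06 (edgeR adjusted p = 0.0270). That call was lost when TM3 MEHP replicate 3 or TM3 DMSO replicate 1 or 3 was left out (edgeR adjusted p = 0.103 to 0.227).

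Per2 (ENSMUSG00000055866, chromosome 1, 91415982 to 91459324, minus strand) was the noisiest of the genes, with a biological coefficient of variation of 13.0%, above 97.4% of the 1000 genes of closest level. In TM4 it stood at 12.5, 13.0 and 12.5 CPM with DMSO and 7.24, 4.67 and 6.78 with MEHP, with a wide gap between the groups. It fell by 1.02 ± 0.18 on the log2 scale (edgeR adjusted p = 8.86e-05). The TM3 libraries stood at 3.46, 6.47 and 5.82 CPM with DMSO and 7.06, 7.24 and 10.1 with MEHP, where the lowest MEHP and the highest DMSO library nearly met. Per2 rose by 0.63 ± 0.19 (edgeR adjusted p = 0.0257). Without TM3 DMSO replicate 1 that value was 0.40 and without TM3 MEHP replicate 3 it was 0.44, and neither passed (edgeR adjusted p = 0.175 and 0.176).

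Per3 (ENSMUSG00000028957, chromosome 4, 151003652 to 151044665, minus strand), whose promoter holds the pair of D-boxes, had the largest change in TM3. The TM3 libraries stood at 8.49, 10.6 and 10.4 CPM with DMSO and 17.1, 17.5 and 15.8 with MEHP, with a wide gap between the groups. It rose by 0.77 ± 0.11 (edgeR adjusted p = 5.44e-06). In TM4 it stood at 45.0, 37.0 and 43.1 CPM with DMSO and 53.7, 44.9 and 48.1 with MEHP, and 1 MEHP library fell just under the highest DMSO library. It was the only clock gene called higher there, by 0.23 ± 0.08 (edgeR adjusted p = 0.0368). That rise did not pass without TM4 DMSO replicate 2, where it was 0.14, without TM4 MEHP replicate 1 or 3, with RLE factors or with DESeq2 (adjusted p = 0.0529 to 0.303 over these settings).

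Cry1 (ENSMUSG00000020038, chromosome 10, 85131700 to 85185064, minus strand) encodes the stronger repressor of the CRY pair in mice. The TM4 libraries stood at 87.6, 81.0 and 84.5 CPM with DMSO and 62.2, 55.8 and 62.6 with MEHP, well apart. Cry1 fell by 0.49 ± 0.07 (edgeR adjusted p = 1.12e-06). In TM3 it stood at 15.0, 15.4 and 14.8 CPM with DMSO and 12.4, 11.96 and 13.4 with MEHP, also apart. The TM3 fall of 0.26 ± 0.09 passed by a narrow margin (edgeR adjusted p = 0.0444). It did not pass without any 1 of TM3 DMSO replicates 1 to 3, TM3 MEHP replicates 1 and 2 and TM4 DMSO replicates 1 and 3, without a filter on low counts, with limma-voom, or with only the 6 TM3 libraries (adjusted p = 0.0529 to 0.179 over these settings).

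Cry2 (ENSMUSG00000068742, chromosome 2, 92403646 to 92434043, minus strand) encodes the other CRY repressor. Its TM3 libraries stood at 16.3, 14.1 and 16.7 CPM with DMSO and 14.9, 14.2 and 13.1 with MEHP. Its TM4 libraries stood at 46.1, 43.5 and 49.5 with DMSO and 48.6, 42.6 and 47.8 with MEHP, and the groups overlapped in both lines. The log2 fold change was -0.15 ± 0.10 in TM3 (edgeR adjusted p = 0.318) and -0.00 ± 0.08 in TM4, where the 95% interval was -0.16 to 0.16. Counts of Cry1 per count of Cry2 within a library, which no scaling touches, were 1.71 to 1.90 in TM4 DMSO and 1.28 to 1.31 in TM4 MEHP. In TM3 they were 0.883 to 1.09 with DMSO and 0.831 to 1.02 with MEHP, so the groups did not overlap in TM4 and overlapped in TM3.

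Nr1d1 (ENSMUSG00000020889, chromosome 11, 98767932 to 98775333, minus strand) encodes REV-ERBalpha. The TM4 libraries stood at 58.6, 55.4 and 53.3 CPM with DMSO and 39.3, 42.3 and 37.8 with MEHP, without overlap. Nr1d1 fell by 0.49 ± 0.07 (edgeR adjusted p = 8.58e-06). In TM3 it stood at 9.46, 11.1 and 11.1 CPM with DMSO and 9.27, 9.99 and 9.25 with MEHP. These groups overlapped, and the log2 fold change of -0.15 ± 0.10 did not pass (edgeR adjusted p = 0.369). Nr1d1 shares 263 exonic bases, 8.55% of its gene model, with Thra, a thyroid hormone receptor gene on the opposite strand, and the strand setting of the counting is not given in the sources used here. Thra was higher in TM3 than in TM4, at 214 ± 3.31 against 75.2 ± 3.03 CPM under DMSO, and had a log2 fold change of -0.01 ± 0.05 with MEHP in TM4 (edgeR adjusted p = 0.950). In TM3 the log2 fold change of Thra was -0.15 ± 0.05, which passed with all libraries (edgeR adjusted p = 0.0325) and not without any 1 of the 6 TM3 libraries (0.0717 to 0.154). The part of Thra in the Nr1d1 counts was not tested.

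Nr1d2 (ENSMUSG00000021775, chromosome 14, 18204054 to 18239127, minus strand) encodes REV-ERBbeta. In TM4 it stood at 114, 116 and 104 CPM with DMSO and 94.8, 93.9 and 89.5 with MEHP, without overlap. It fell by 0.26 ± 0.06 (edgeR adjusted p = 0.000714). The TM3 libraries stood at 34.4, 33.4 and 34.8 CPM with DMSO and 36.9, 34.7 and 35.5 with MEHP, and the groups overlapped. The TM3 log2 fold change was 0.06 ± 0.07 (95% interval -0.07 to 0.20, edgeR adjusted p = 0.597).

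Dbp (ENSMUSG00000059824, chromosome 7, 45705088 to 45710203, plus strand) encodes the D-box activator that is a standard reporter of CLOCK and BMAL1 activity. In TM4 it stood at 42.5, 43.8 and 51.0 CPM with DMSO and 27.7, 34.1 and 34.0 with MEHP, every MEHP library below every DMSO library. It fell by 0.52 ± 0.09 (edgeR adjusted p = 6.68e-05). The TM3 libraries stood at 5.52, 5.62 and 5.51 CPM with DMSO and 5.68, 6.04 and 7.69 with MEHP. These groups did not overlap, but 1 MEHP library made most of the difference and the log2 fold change of 0.22 ± 0.15 did not pass (edgeR adjusted p = 0.344). Dbp shares 539 exonic bases, 18% of its gene model, with the sphingosine kinase gene Sphk2 on the opposite strand. Sphk2 rose in TM4 with MEHP by 0.75 ± 0.09 (edgeR adjusted p = 4.01e-07), opposite in sign to Dbp, and stood at -0.22 ± 0.09 in TM3 (edgeR adjusted p = 0.111). The part of Sphk2 in the Dbp counts was not tested.

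Whether the response of TM4 differed from that of TM3 was tested directly as an interaction. Of the 10 genes 6 responded lower in TM4 than in TM3 and 0 higher, where 13.3% and 13.0% of all genes did and 26.3% in either direction. Per2 differed by -1.65 ± 0.26 (edgeR adjusted p = 4.16e-05), Per1 by -1.03 ± 0.08 (edgeR adjusted p = 6.72e-11) and Dbp by -0.74 ± 0.17 (edgeR adjusted p = 0.00176). Per3, which was called higher in both lines, differed by -0.54 ± 0.14 (edgeR adjusted p = 0.00408), Clock by -0.47 ± 0.10 (edgeR adjusted p = 0.000497) and Nr1d2 by -0.33 ± 0.09 (edgeR adjusted p = 0.00608). The other four did not pass. Nr1d1 stood closest at -0.33 ± 0.13 (95% interval -0.60 to -0.07, edgeR adjusted p = 0.0525) and passed without TM3 DMSO replicate 2, TM4 DMSO replicate 3 or TM4 MEHP replicate 2 (edgeR adjusted p = 0.0344 to 0.0483). Cry1 stood at -0.23 ± 0.11 (-0.45 to -0.00, edgeR adjusted p = 0.132). Arntl stood at -0.10 ± 0.17 (-0.46 to 0.25) and Cry2 at 0.15 ± 0.13 (-0.10 to 0.41). The comparison of the lines under DMSO shares its libraries with these responses, so the values are given side by side only.

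Ratios of counts within a library do not depend on how libraries are scaled. Counts of Per1 per count of Arntl were 27.2 to 35.2 in TM4 DMSO and 12.6 to 18.5 in TM4 MEHP, against 6.78 to 8.92 and 7.15 to 8.20 in TM3. Counts of Per3 per count of Per1 were 0.0753 to 0.0906 in TM3 DMSO and 0.110 to 0.141 in TM3 MEHP. In TM4 they were 0.125 to 0.149 with DMSO and 0.258 to 0.320 with MEHP. Per3 thus stood higher relative to Per1 in the MEHP libraries of both lines, with no overlap of groups. Dbp per Arntl was 3.98 to 5.19 in TM4 DMSO and 2.64 to 3.63 in TM4 MEHP, and 0.332 to 0.429 and 0.346 to 0.441 in TM3, where the groups overlapped. An exact permutation test of 3 against 3 libraries cannot give a two-sided p below 0.1, so these ratios are given without one.

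The other D-box factors were read beside Dbp and Per3. Tef, a close relative of Dbp, went from 177 ± 6.04 CPM in TM4 DMSO to 98.3 ± 5.31 in TM4 MEHP (SD, n = 3), and stood at 68.5 ± 4.45 and 73.6 ± 0.691 in TM3. It fell in TM4 by 0.85 ± 0.06 (edgeR adjusted p = 6.99e-13), was 0.10 ± 0.06 in TM3 (edgeR adjusted p = 0.273), and the responses differed by -0.95 ± 0.08 (edgeR adjusted p = 5.31e-10). Nfil3, the D-box repressor gene, stood at 82.9 ± 2.50 and 104 ± 6.98 CPM in TM4 with DMSO and MEHP, and at 47.5 ± 3.99 and 50.5 ± 2.36 in TM3. It rose in TM4 by 0.33 ± 0.06 (edgeR adjusted p = 0.000178). Hlf, the remaining activator of this family, was higher in TM3, at 16.0 ± 1.47 CPM against 4.09 ± 0.346 in TM4 under DMSO. It fell in TM4 by 0.59 ± 0.18 (edgeR adjusted p = 0.0119), a call lost without TM4 MEHP replicate 1 (edgeR adjusted p = 0.0629). Of these 3 genes 1 rose and 2 fell in TM4 (15.9% and 15.0% of all genes did), with a median log2 fold change of -0.59 (0.00 over all genes). In TM3 0 passed the edgeR test, 0 also at an unadjusted p under 0.05, and the median was 0.09 (0.01 over all genes). In TM4 the 3 D-box activator genes Dbp, Tef and Hlf were thus called lower and the repressor gene Nfil3 higher. Per3, with its pair of D-boxes, was also called higher there (edgeR adjusted p = 0.0368), but its libraries overlapped. That call was lost with RLE factors, with DESeq2 and without some single libraries. The part of these factors in the Per3 response was not tested.

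**Figure D4:**
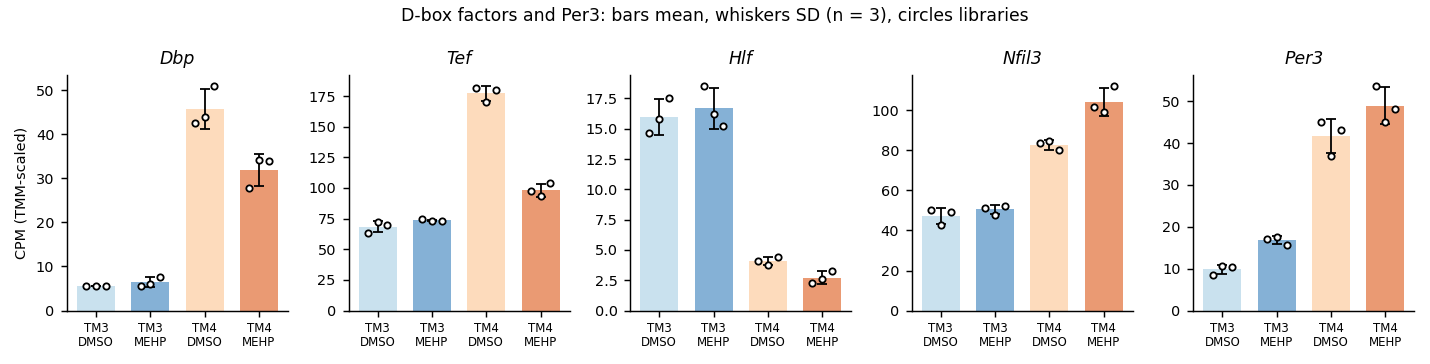
CPM of the D-box activator genes Dbp, Tef and Hlf, the D-box repressor gene Nfil3, and Per3 in the 4 groups, with bars for the mean, whiskers for the SD (n = 3) and circles for the libraries, each panel on its own scale from 0. In TM4, Tef falls from 177 to 98.3 CPM and Nfil3 rises from 82.9 to 104 CPM with MEHP, while Per3 moves from 41.7 to 48.9 CPM.

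Npas2, which can replace CLOCK in mice, had at most 1 count in a library. The receptor genes Rora and Rorb, whose products activate at the elements that the REV-ERB receptors repress, had at most 3 and at most 1. Arntl2, the paralog of Arntl, reached 1.68 ± 0.355 CPM in TM3 DMSO but 0.818 ± 0.172 in TM4 DMSO. It did not pass with MEHP in either line.

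Among 5 other repressors, 1 rose and 0 fell in TM3, and 0 rose and 1 fell in TM4, with median log2 fold changes of -0.09 and -0.18 (0.01 and 0.00 over all genes). Over all genes 16.5% passed in TM3 and 30.9% in TM4, so 1 of 5 in each line is no more than a share near or below that of all genes. Ciart, which represses CLOCK and BMAL1, showed the widest gap between the lines of these 5, with 0.933 ± 0.249 CPM in TM3 DMSO against 21.6 ± 1.41 in TM4 DMSO, a log2 fold change of 4.51 ± 0.17, and did not pass with MEHP in either line. Bhlhe40 (DEC1), which competes for E-boxes, stood at 159 ± 4.16 CPM in TM4 DMSO and fell there by 0.18 ± 0.06 with MEHP (edgeR adjusted p = 0.0111), a call lost without TM4 MEHP replicate 1 (edgeR adjusted p = 0.0639). Timeless, better known in mammals for its role at replication forks, rose in TM3 by 0.23 ± 0.07 (edgeR adjusted p = 0.0210). That call was lost without any 1 of TM3 DMSO replicates 1 and 2 and TM3 MEHP replicates 1 to 3 (edgeR adjusted p = 0.0545 to 0.0849). Under DMSO, Bhlhe41 stood at 20.9 ± 1.75 CPM in TM3 against 18.9 ± 1.43 in TM4, and Cipc at 35.4 ± 2.00 and 23.1 ± 2.16, and neither passed with MEHP.

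Of 9 genes for kinases and ubiquitin pathway enzymes that set the stability of PER and CRY proteins, 8 could be tested. In TM3, 1 rose and 2 fell, and in TM4, 0 rose and 4 fell, with medians of -0.03 and -0.15 (0.01 and 0.00 over all genes). Over all genes 9.04% rose and 7.43% fell in TM3, and 15.9% and 15.0% in TM4. Usp2, a deubiquitinase of clock proteins, fell in TM3 from 52.0 ± 1.75 to 36.7 ± 2.36 CPM, by 0.50 ± 0.08 (edgeR adjusted p = 4.18e-05). Csnk2a1, a casein kinase 2 subunit gene, fell in TM4 by 0.31 ± 0.06 (edgeR adjusted p = 8.65e-05). Smaller calls that were each lost without 1 library at a time were those of Csnk1e at 0.19 in TM3, and Fbxw11 and Csnk1d at -0.14 each in TM4 (edgeR adjusted p up to 0.197, 0.0902 and 0.0725). For Csnk1e the libraries were TM3 DMSO replicates 1 and 2 and TM3 MEHP replicates 2 and 3, and its value without TM3 DMSO replicate 2 was 0.13. They were TM4 DMSO replicate 1 and TM4 MEHP replicates 2 and 3 for Fbxw11, and TM4 DMSO replicate 1 for Csnk1d.

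Of 7 genes known elsewhere as clock outputs, 3 rose and 1 fell in TM3, and 0 rose and 3 fell in TM4, with median log2 fold changes of 0.16 and -0.09, against 0.01 and 0.00 over all genes. The shares of all genes were 9.04% and 7.43% in TM3, and 15.9% and 15.0% in TM4. Wee1, a mitotic inhibitor gene with E-boxes in its promoter in mice, fell in TM4 from 51.7 ± 1.40 to 35.5 ± 3.64 CPM, by 0.54 ± 0.08 (edgeR adjusted p = 6.08e-06). Tspan4 fell in TM4 by 0.31 ± 0.07 (edgeR adjusted p = 0.000775). In TM3 Wee1 rose by 0.26 ± 0.08, Por, the electron donor of cytochrome P450 enzymes, rose by 0.16 ± 0.05, and Tspan4 fell by 0.18 ± 0.06. Each of these 3 calls was lost without 1 library at a time (highest edgeR adjusted p 0.262, 0.150 and 0.201). For Wee1 they were TM3 DMSO replicates 1 and 3 and TM3 MEHP replicate 2, the last leaving a value of 0.17. For Por they were all 6 TM3 libraries, and for Tspan4 all of them but TM3 DMSO replicate 2. The responses of the lines differed for Wee1 by -0.81 ± 0.12 (edgeR adjusted p = 5.56e-06).

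Per1 is also a direct target of the glucocorticoid receptor and of cAMP signalling, so 9 genes of those responses were read beside it. In TM3 3 rose and 1 fell, and in TM4 0 rose and 6 fell, with medians of 0.14 and -0.59 (0.01 and 0.00 over all genes). Of all genes tested 9.04% rose and 7.43% fell in TM3, and 15.9% rose and 15.0% fell in TM4. Tsc22d3 (GILZ), a glucocorticoid receptor target, rose in TM3 from 172 ± 13.8 to 230.2 ± 13.1 CPM, by 0.42 ± 0.06 (edgeR adjusted p = 8.64e-06). In TM4 it fell from 183 ± 9.01 to 112 ± 8.34 CPM, by 0.71 ± 0.06 (edgeR adjusted p = 5.47e-10). Klf9 rose in TM3 by 0.37 ± 0.06 and Fkbp5 by 0.24 ± 0.05. Nr4a1, an immediate early nuclear receptor gene, fell in TM3 by 0.74 ± 0.10 and in TM4 by 1.12 ± 0.07. Dusp1, a phosphatase gene of both responses, fell in TM4 by 0.96 ± 0.07 and the kinase gene Sgk1 by 0.59 ± 0.08. By the interaction test 7 of the 9 responded lower in TM4 than in TM3 and 0 higher, where 13.3% and 13.0% of all genes did. Tsc22d3 did so by -1.13 ± 0.09 (edgeR adjusted p = 9.10e-11). Within each line, the members that passed there moved in the direction of Per1, except Nr4a1 in TM3. Klf9 and Dusp1, called in 1 line each, were opposite in sign to Per1 in the other line, where they did not pass. The part of these 9 genes in the clock genes' responses was not tested.

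Markers of other cell types were read in the same groups. The summed level of 4 peritubular myoid markers was 485 to 528 CPM in TM4 DMSO and 208 to 239 in TM4 MEHP, mostly from the smooth muscle actin gene Acta2 at 495 ± 21.7 and 213 ± 15.2 CPM. In TM3 it was 34.4 to 42.5 CPM with DMSO and 48.2 to 49.95 with MEHP. These sums moved in the direction of Per1 in both lines, and their part in its responses was not tested. The 3 germ cell markers summed to at most 2.73 CPM, the 3 leukocyte markers to at most 4.35 and the 2 endothelial markers to at most 0.821, with Ptprc and Adgre1 at or near 0. The Sertoli markers summed to 400 to 437 CPM in TM3 DMSO and 364 to 377 in TM3 MEHP, and to 59.7 to 63.9 and 59.3 to 63.5 in TM4, where Gata4 made up most of the sum. Single Sertoli markers moved with MEHP. Clu fell by 0.38 ± 0.06 in TM3 (edgeR adjusted p = 9.81e-05) and by 1.69 ± 0.30 in TM4 (edgeR adjusted p = 5.63e-05). Its level in TM4 was low, at 18 to 42 counts in a library with DMSO and 8 to 10 with MEHP. Inha, the inhibin alpha subunit gene, rose in TM4 from 4.99 ± 0.897 to 8.02 ± 2.07 CPM, by 0.69 ± 0.18 (edgeR adjusted p = 0.00313). Without TM4 MEHP replicate 3 the value for Inha was 0.46 and its call was lost (edgeR adjusted p = 0.0525). The part of these markers in the clock genes' responses was not tested.

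Relative to the mean of its line, the pattern of each clock gene over the 12 libraries was compared with that of every other tested gene by Pearson's r of log2 CPM. These r values are descriptions: the libraries share treatment groups, so a gene with a like response to MEHP in both lines scores high. Per1 was most like Actn4 (r = 0.988) and Col5a1 (0.986), and Per3 was most like Gm42047 (0.983), Mapk8ip3 (0.974) and Gsdme (0.972). Cry1 was most like Rbm4b (0.981), Zfp740 (0.980) and mt-Cytb (0.972), and Nr1d2 most like Pank3 (0.977), Fzd5 (0.972) and Gxylt1 (0.970). For Clock the nearest were Ascc3 (0.9752), Rasal2 (0.966) and Rbpj-ps3 (0.960), and for Nr1d1 Tardbp (0.967), Dusp1 (0.963) and Bach1 (0.962). Per2 and Dbp had less close neighbours, Nfya (0.950), Pcx (0.948) and Pan2 (0.941) for Per2, and Itgb3 (0.931), Chst12 (0.915) and Ing1 (0.914) for Dbp. For these 8 genes, no other clock gene was among the 3 nearest. Among the clock genes themselves the closest pairs were Per1 with Nr1d2 (0.900), Per1 with Dbp (0.850) and Cry1 with Nr1d1 (0.835), while Per3 stood at -0.08 with Per1 and -0.59 with Cry1.

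Spread between replicates differed among the genes. The biological coefficient of variation was 13.0% for Per2, 8.02% for Arntl, 7.37% for Dbp and 6.71% for Per3, against 6.00% for the common value of all tested genes. It was 4.91% for Nr1d2, 5.07% for Per1, 5.29% for Cry1, 5.63% for Nr1d1, 5.80% for Clock and 6.00% for Cry2. Among the 1000 genes of closest level, Dbp lay above 89.5%, Clock above 87.2% and Per3 above 82.9% of them, and Nr1d2 above 20.9%.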

How the data were processed

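Messenger RNA was captured with poly-T beads and sequenced as read pairs, per the labels' protocols. What the authors deposited is 1 table of raw counts, with no normalization. The submitters' processing notes name featureCounts 1.5.0-p3, HISAT2 2.0.5 and the mm10 build, among other tools. For the annotation release, the strand setting and the counting options, nothing is stated in the sources used here. Coordinates and model lengths of all 10 clock genes equalled those of GENCODE M21. Some label fields call the lines rat, but organism and gene identifiers are those of mouse.

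Groups came from the sample titles. All 15700 genes kept by filterByExpr were fitted together by the quasi-likelihood test of edgeR 4.0.16 (R 4.3.3), with TMM factors, robust estimates, 1 coefficient per group and 8 residual degrees of freedom, and with Benjamini-Hochberg adjustment over all of them and a threshold of 0.05. The 5 comparisons share this fit. A standard error was taken as the size of the log2 fold change divided by the root of the F statistic. The labels name no sequencing batch. Within groups, pairs of libraries differed by more than sampling noise (chi-square per degree of freedom 2.40 to 11.4). Of library pairs with the same replicate number, 3 per line, correlations of deviations from the group means were 0.00446 to 0.0293 in TM3 and 0.0277 to 0.120 in TM4. With a different number the highest was 0.0170 in TM3 and 0.00674 in TM4. No label says that equal numbers share a culture, so the main fit did not take the numbers to pair samples.

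Alternatives were upper-quartile and RLE factors, no filter, a stricter filter of 1 CPM in 3 libraries, DESeq2 1.42.0, limma-voom (limma 3.58.1), leaving out single libraries, a replicate block, an adjusted p under 0.01, and fits without the groups not compared. The procedure was tested on simulated data with the same spread for every gene, and only for MEHP against DMSO within a line. Genes of wider spread, such as Per2, and the difference of the responses were not simulated. The clock genes and all gene lists were chosen with earlier results of these data known. Named beside the clock genes were up to 4 genes per list and comparison that passed with the largest changes, genes of some lists by level, the 3 genes most alike in pattern, and genes overlapping a clock gene. Some genes named by this rule are left out of the text. Promoter sequences are from RefSeq (GRCm38.p6) and were matched by symbol for 9 of the 10 genes.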

Additional observations from a re-analysis of the deposited data

Results flagged for a closer look

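For 6 of the 10 clock genes the response to MEHP differed between the lines by the edgeR test of the difference itself, TM4 minus TM3, on the log2 scale. The differences were -0.47 for Clock, -1.03 for Per1, -1.65 for Per2, -0.54 for Per3, -0.33 for Nr1d2 and -0.74 for Dbp. All 6 were negative, and each passed under each alternative setting and with any 1 library left out. Over all genes 26.3% passed this test. Per3 was called higher in both lines, Clock, Per1 and Per2 were called higher in TM3 and lower in TM4, and Nr1d2 and Dbp were called in TM4 only. Of these calls within a line, those of Clock and Per3 in TM4 and of Per1 and Per2 in TM3 were lost in some settings. Groups of 3 libraries are too small for the check of single outlying libraries.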

How the results depend on the processing

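Of 1040 values of a clock gene under an alternative setting, 987 kept their direction and side of the threshold, 30 lost a call, 17 gained one and 6 changed sign. With 1 library left out at a time, the count of clock genes called was 2 to 5 for MEHP in TM3 (5 with all libraries), 6 to 8 in TM4 (8), 6 to 7 for the difference (6), 10 to 10 between the lines under DMSO (10) and 9 to 10 under MEHP (9). Over all genes the calls with 1 library left out were 1742 to 2949 for MEHP in TM3 (2585 with all libraries) and 3745 to 4900 in TM4 (4856). They were 3458 to 4388 for the difference (4134), 12757 to 13261 between the lines under DMSO (12881) and 12389 to 12867 under MEHP (12609). At a threshold of 0.01 the TM3 count of clock genes was 2, with 1492 calls over all genes. The sign changes were all of estimates near 0 in TM4. Cry2 stood at 0.0151 with upper-quartile factors, 0.000417 with no filter, 0.0486 without TM4 DMSO replicate 3 and 0.0579 without TM4 MEHP replicate 2 (range with 1 library left out -0.0585 to 0.0579). Arntl stood at -0.0302 without TM4 DMSO replicate 2 and -0.00927 without TM4 MEHP replicate 3 (range -0.0302 to 0.186). The cause was not tested. The difference for Nr1d1 passed with RLE factors, the stricter filter, DESeq2, a replicate block and 3 single libraries left out (adjusted p = 0.0344 to 0.0483). A replicate block gave 5, 8, 7, 10 and 9 calls of clock genes in the order above, and 2827, 5029, 4366, 12908 and 12647 over all genes. The replicate numbers are not known to pair samples. The library of TM3 replicate 1 correlated better with another number (0.0170) than with its own (0.00446). TM3 replicates 2 and 3 and TM4 replicates 1 to 3 correlated better with their own number. In TM4 the values were 0.114, 0.0277 and 0.120, against at most 0.00674 with another number. Clock and Per3 in TM3, and Per1, Per2, Cry1, Nr1d1, Nr1d2 and Dbp in TM4, kept their calls in every setting tried. Per2, with 57 to 229 counts in a library, was the clock gene with the fewest counts.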
